A study of Mus musculus with 32 samples.

Results

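The heat shock and chaperone genes were taken as every array probe whose gene symbol begins with Hspa, Hspb, Hspd, Hspe, Hsph, Hsp90, Dnaja, Dnajb or Dnajc, consists of Bag, Cct or Hsf and a digit, or is Cryaa or Cryab. The rule found 67 genes with 107 probes among 9030 named genes, on an array of 20794 probes. It found no Hsf gene. Of the 67 genes, 38 had 1 probe and 29 had several. The series compared RNA of sighted C3H mice of the seh line (males, per the series' design text) with RNA of C3H mice labelled pde6b-, in eye, brain and heart. Each 2-colour array held RNA of a sighted sample in one dye and, in the other, a pool of RNA from 6 male C3H.pde6b- controls of the same organ. One set of control mice supplied both the brain and the heart pool, and another set supplied the eye pool. There were 12 eye, 12 brain and 8 heart arrays. Averaging consecutive arrays of opposite dye gave 6 eye, 6 brain and 4 heart replicates. The labels give no age and leave unsaid which arrays came from 1 animal, and the p-values therefore cover only the spread between replicates, which may be technical. The controls of an organ entered as a single pool, so their own spread is not in any test.

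Chaperones bind proteins that are unfolded or only partly folded, prevent them from clumping and help them to reach or regain their shape. HSP70 proteins are recruited and driven by J-domain proteins of the DNAJ families, released by nucleotide exchange factors such as the BAG proteins, and pass some clients on to HSP90 or to the ring-shaped chaperonins, HSP60 in mitochondria and CCT in the cytosol. Small heat shock proteins, to which the alpha crystallins of the lens belong, hold unfolding proteins without using ATP. Heat shock factors raise many of these genes under stress, and the endoplasmic reticulum has its own set under the unfolded protein response. Mice with the C3H pde6b- genotype lack a working rod phosphodiesterase subunit and lose their rods early in life.

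Promoter windows of 250 bases before to 50 bases after the gene start were read from RefSeq (GRCm38.p6) and matched 56 of the 67 genes. Those shown are of members that the eye results turn on and that hold a stress motif, with Hsph1 beside them as a heat shock gene that was not called in eye. The heat shock factor motif searched was the inverted pair GAANNTTC, which reads the same on both strands. Its longer form, called the triplet here, adds GAA after a gap of NN on either strand and so contains the pair. The endoplasmic reticulum stress element searched, on both strands, was CCAAT and CCACG with any 9 bases between them. Capitals mark the match, and each sequence runs 5′ to 3′ on the gene's strand. Bag3 is at chr7:128523333-128523632 (+ strand), Hspb8 at chr5:116422815-116423114 (- strand), Hsph1 at chr5:149636266-149636565 (- strand), Hsp90b1 at chr10:86705395-86705694 (- strand) and Dnajc3 at chr14:118937682-118937981 (+ strand).
Bag3: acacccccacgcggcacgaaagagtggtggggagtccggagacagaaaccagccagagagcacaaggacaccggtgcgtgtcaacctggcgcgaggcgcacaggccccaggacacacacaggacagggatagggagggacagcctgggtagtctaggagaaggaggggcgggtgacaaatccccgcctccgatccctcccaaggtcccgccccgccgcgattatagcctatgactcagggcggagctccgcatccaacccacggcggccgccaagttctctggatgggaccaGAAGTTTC
Hspb8: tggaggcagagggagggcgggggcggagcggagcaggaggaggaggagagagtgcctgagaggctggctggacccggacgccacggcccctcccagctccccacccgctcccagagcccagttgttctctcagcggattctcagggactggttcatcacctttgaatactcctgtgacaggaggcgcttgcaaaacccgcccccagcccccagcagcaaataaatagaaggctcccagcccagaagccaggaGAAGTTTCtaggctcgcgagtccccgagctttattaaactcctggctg
Hsph1: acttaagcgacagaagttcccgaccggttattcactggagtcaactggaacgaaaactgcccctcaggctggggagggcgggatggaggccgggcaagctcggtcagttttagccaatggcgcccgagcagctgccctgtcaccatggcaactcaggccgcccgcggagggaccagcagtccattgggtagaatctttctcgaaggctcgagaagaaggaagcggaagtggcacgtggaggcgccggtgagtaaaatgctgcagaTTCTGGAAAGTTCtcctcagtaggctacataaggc
Hsp90b1: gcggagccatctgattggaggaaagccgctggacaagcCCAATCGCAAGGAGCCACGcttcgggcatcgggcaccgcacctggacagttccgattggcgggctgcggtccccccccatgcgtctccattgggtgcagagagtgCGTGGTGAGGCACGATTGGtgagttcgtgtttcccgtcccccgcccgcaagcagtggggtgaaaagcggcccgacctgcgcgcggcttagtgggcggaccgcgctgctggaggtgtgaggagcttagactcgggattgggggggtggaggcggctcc
Dnajc3: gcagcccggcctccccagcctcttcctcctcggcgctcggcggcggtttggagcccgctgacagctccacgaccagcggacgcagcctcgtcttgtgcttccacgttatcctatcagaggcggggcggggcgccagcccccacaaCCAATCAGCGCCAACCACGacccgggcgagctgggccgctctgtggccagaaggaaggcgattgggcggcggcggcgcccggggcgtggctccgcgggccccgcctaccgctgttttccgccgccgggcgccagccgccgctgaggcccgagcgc

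The pair GAANNTTC was present in 7.86% of all 32851 promoter windows and in 18 of the 71 windows of the member genes, which belong to 16 genes. Of these 16 genes only Bag3 and Hspb8 were called in eye, both lower. Of all genes tested in eye 26.8% were called, 15.9% higher and 11.0% lower, so so few calls show no link of the pair to a direction. Hspa1a was not tested in eye, and the rest were not called. The pair runs from position 293 of the window in Bag3 and from position 253 in Hspb8, which is past the start of either gene. No member whose window holds the pair was called higher in eye, but 5 of the 12 members called higher (Hsp90aa1, Cct4, Cryab, Dnajc5 and Dnajc11) had no window to search. Hspb2, which was called lower, had no window either. The triplet was present in 0.603% of all windows and in 6 windows of 4 member genes, Dnajb6, Hspd1, Hspe1 and Hsph1, none of which was called in eye. The endoplasmic reticulum stress element was present in 0.119% of all windows and in 3 windows of members. These were Hsp90b1, which holds 2 matches and was higher in sighted eye, Dnajc3, which was lower, and Hspa5, which was not called. A match describes the letters of the window, not a site of binding.

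All values below are log2 ratios, sighted over control, or differences between such ratios. A ratio gives no level, so genes cannot be ranked by abundance. The direction of the deposited ratio was not stated and is likely, since the median of the rod list was 4.84 to 5.57 on the eye arrays whose sighted RNA carried Cy5 and -4.83 to -4.06 where it carried Cy3. Pde6b itself was not analysed here. In whole organs, fewer cells of a type and less RNA per cell cannot be told apart. Missing values made up 1.62% to 5.10% of an eye array and 1.01% to 5.05% of a brain array. Heart array 7 missed 61.6%, against 5.96% to 12.0% of the other heart arrays. A top value above 15 that an array repeats was read as a ceiling and treated as missing. The precision is limited by the number of arrays.

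In eye, 18 of the 63 members tested differed between sighted and control RNA, 12 higher and 6 lower (limma, adjusted p under 0.05). Of all 15874 genes tested in eye 26.8% were called, 15.9% higher and 11.0% lower, so the members were called about as often as the array as a whole. Here and below, all genes of a test include each probe without a gene symbol as a gene of its own. The member median was 0.06, against 0.03 for all genes. The largest values were those of Hspa14, Hsp90aa1, Cryaa and Hsp90b1 among the higher genes and of Hspb8, Bag2, Bag3 and Hspb2 among the lower. Their groups of function split. Both HSP90 genes were higher, Hsp90aa1 by only 1 of its 2 probes. Both called BAG genes were lower, and the small heat shock genes went both ways. Of the subset of heat-inducible cytosolic genes 11 were tested, with 1 higher and 1 lower, and its median was 0.07.

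**Figure D1:**
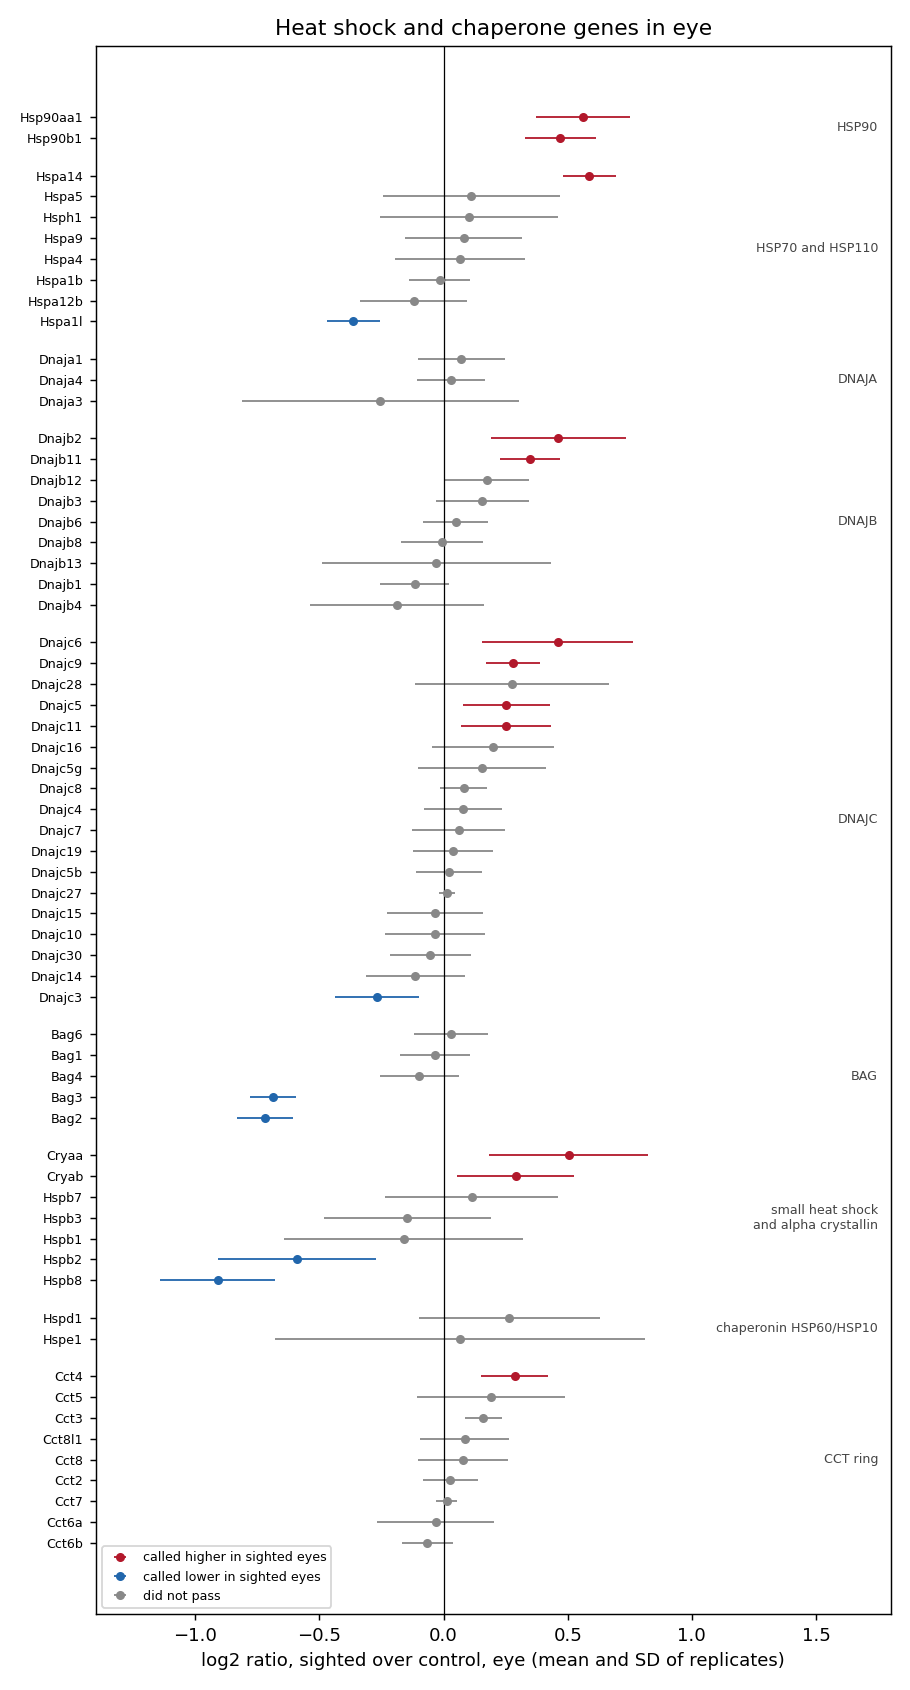
Mean log2 ratio of sighted over control RNA in eye for the 63 members tested, by role from the HSP90 genes at the top to the CCT ring at the bottom, with error bars of 1 SD over 6 replicates (5 for Hspb2). Red and blue points are the 18 members called higher or lower, which run from -0.91 for Hspb8 to 0.59 for Hspa14.

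The HSP90 genes were both higher in sighted eye. Hsp90aa1, the stress-inducible cytosolic HSP90, had replicates with a lowest log2 ratio of 0.36, a median of 0.53 and a highest of 0.79. All 6 replicates lay above 0, and the mean was 0.56 ± 0.19 (SD, n = 6), a 1.48-fold ratio with a limma adjusted p of 0.00121. That mean joins 2 probes that differed by 1.12, of which only 1 was called by itself, as given below. Hsp90b1, the HSP90 of the endoplasmic reticulum also known as GRP94, had 0.29, 0.45 and 0.66 as its lowest, median and highest value. Its replicates too were all above 0, with a mean of 0.47 ± 0.14 (SD, n = 6), a 1.39-fold ratio (limma adjusted p = 0.00149).

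Among the HSP70 and HSP110 genes, 1 rose and 1 fell of 8 tested. Hspa14, an HSP70-like protein that works at the ribosome with a J-domain partner, had a lowest value of 0.43, a median of 0.62 and a highest of 0.72 in eye. It had the highest mean of all members at 0.59 ± 0.11 (SD, n = 6) and a limma adjusted p of 0.000271. Hspa1l, an HSP70 best known from testis, had values from -0.48 over a median of -0.37 to -0.19, all below 0. Its mean was -0.36 ± 0.10 (SD, n = 6), a ratio of 0.778-fold with a limma adjusted p of 0.003. The inducible Hspa1b averaged -0.01 ± 0.12, the endoplasmic reticulum chaperone Hspa5 0.11 ± 0.36, the mitochondrial Hspa9 0.08 ± 0.24 and the HSP110 genes Hspa4 and Hsph1 0.07 ± 0.26 and 0.10 ± 0.36 (SD, n = 6 each). None of these passed the test, and each had replicates on both sides of 0.

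J-domain proteins choose the clients of HSP70. Of the 3 DNAJA, 9 DNAJB and 18 DNAJC genes tested in eye, 0, 2 and 4 were higher and 0, 0 and 1 were lower. Dnajb2, a neuronal J-domain protein that sorts clients to the proteasome, had a lowest value of 0.20, a median of 0.39 and a highest of 0.82. Its mean of 0.46 ± 0.27 (SD, n = 6) gave a limma adjusted p of 0.0102. Dnajb11, which assists Hspa5 in the endoplasmic reticulum, ran over 0.19, 0.35 and 0.50 and averaged 0.35 ± 0.12 (SD, n = 6; limma adjusted p = 0.00462). Both genes were above 0 in all 6 replicates.

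Dnajc6, which is auxilin, the J-domain protein that strips clathrin from vesicles in neurons, had values of 0.01 at the lowest, 0.47 at the median and 0.85 at the highest. Its mean was 0.46 ± 0.30 (SD, n = 6; limma adjusted p = 0.0154). Without replicate 1 the adjusted p was 0.0506, and with the ceiling values kept the mean was 0.98 and not called (adjusted p = 0.175). Dnajc5, the cysteine string protein of synaptic vesicles, ran over 0.07, 0.22 and 0.53 with a mean of 0.25 ± 0.18 (SD, n = 6; limma adjusted p = 0.0388). Together with Dnajb2, they made up the 3 called of the 4 tested genes of a subset named clathrin and synaptic vesicle, against 26.8% of all genes called. Its median was 0.36, and the remaining gene was Dnajb6. The subset was chosen with earlier results of these data known, so its count is no test of a shared function of these genes. Of the rod markers 6 of 6 tested were higher in eye, with a median of 4.84, and their part in the values of these genes was not tested.

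Dnajc9, a J-domain protein that also handles histones, averaged 0.28 ± 0.11 (SD, n = 6), with values from 0.12 to 0.40 around a median of 0.26 (limma adjusted p = 0.0109). Dnajc11, a mitochondrial protein associated with the inner membrane organising complex, averaged 0.25 ± 0.18 (SD, n = 6), with a lowest value of -0.03, a median of 0.30 and a highest of 0.46 (limma adjusted p = 0.0434). Dnajc3, the endoplasmic reticulum protein p58IPK that restrains the stress kinase PERK, was the lower one. Its values ran from -0.59 over a median of -0.19 to -0.16 and its mean was -0.27 ± 0.17 (SD, n = 6; limma adjusted p = 0.0281). The calls of Dnajc5, Dnajc11 and Dnajc3 were lost when single replicates were left out. Dnajc5 lost its call without replicate 1, 2, 3, 4 or 6, Dnajc11 without 1, 3, 5 or 6, and Dnajc3 without 1, 2, 3, 4 or 5. Across them the adjusted p then lay between 0.0531 and 0.117. Of the DNAJA genes, the cytosolic Dnaja1 averaged 0.07 ± 0.18 and the mitochondrial Dnaja3 -0.25 ± 0.56 (SD, n = 6 each), and neither passed the test.

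The endoplasmic reticulum genes did not move as a block. Of 7 tested members of this subset, Hsp90b1 and Dnajb11 were higher, Dnajc3 was lower, and the other 4 did not pass the test. The mitochondrial subset had 1 call, Dnajc11, among 10 genes tested.

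The small heat shock proteins and alpha crystallins had 2 genes higher and 2 lower of 7 tested. Hspb8, which with Bag3 delivers damaged muscle proteins to autophagy, was the lowest of all members. Its eye replicates ran from -1.28 over a median of -0.88 to -0.60, all below 0, and the mean was -0.91 ± 0.23 (SD, n = 6), a ratio of 0.532-fold with a limma adjusted p of 0.000205. Hspb2, a small heat shock protein of muscle, was measured in 5 replicates and ran from -1.03 over -0.56 to -0.17. Its mean was -0.59 ± 0.32 (SD, n = 5; limma adjusted p = 0.0106), and -2.01 with the ceiling values kept, where it was not called (adjusted p = 0.281).

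Cryaa, the alpha crystallin made almost only in lens, had a lowest value of -0.01, a median of 0.67 and a highest of 0.76. Its mean was 0.50 ± 0.32 (SD, n = 6; limma adjusted p = 0.0124). Cryab, the alpha crystallin found in lens, muscle and heart, ran over 0.01, 0.31 and 0.64, with a mean of 0.29 ± 0.24 (SD, n = 6). Its limma adjusted p of 0.0465 was the closest to the threshold among the members called, and Cct3 with 0.0676 was the closest among those not called. The call of Cryab was lost without replicate 2, 3, 4, 5 or 6, when adjusted p was between 0.0529 and 0.119, and when every array was centred on its median (0.0628). Hspb1, the widespread HSP27 (mouse HSP25), averaged -0.16 ± 0.48 (SD, n = 6) and did not pass the test.

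Replicates 1 and 5 stood apart for these genes. Cryaa was -0.01 and 0.21 in them, against 0.66 to 0.76 in the other replicates. Hspb1 was -0.76 in both, against -0.01 to 0.35 in the others. The list of other lens genes, of which 10 of 19 were tested with 9 higher and 1 lower, had medians of 0.11 and 0.15 in these 2 replicates, against 0.75 to 1.01 in the others. The lens list median over all replicates was 0.59, and how far lens RNA enters the values of Cryaa and Cryab was not tested. Without replicates 1 and 5, a setting chosen after seeing the data, Cryaa and Cryab were called higher, and 7 members in all were higher and 3 lower, against 8.05% and 5.47% of all genes.

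**Figure D2:**
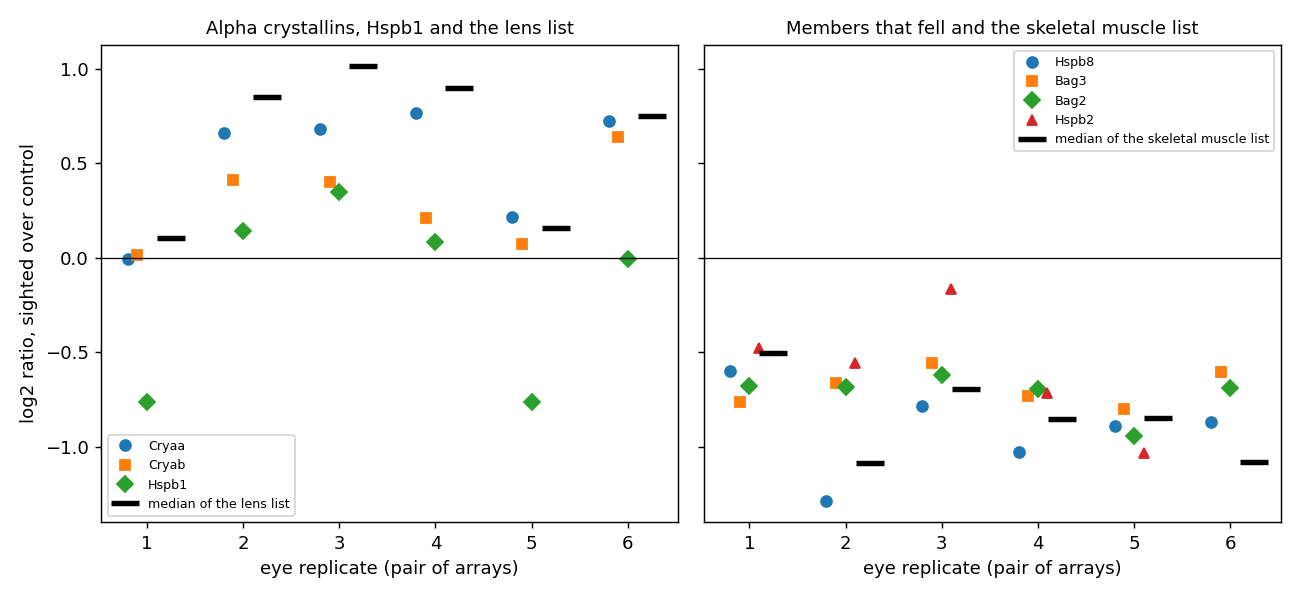
Log2 ratio of sighted over control RNA in each of the 6 eye replicates for Cryaa, Cryab, Hspb1 and the lens list median (left) and for Hspb8, Bag3, Bag2, Hspb2 and the skeletal muscle list median (right). Cryaa and the lens list are lowest in replicates 1 and 5, while Hspb8 and Bag3 are below 0 in all replicates.

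The BAG genes had 2 lower of 5 tested and none higher. Bag2, a co-chaperone that slows the ubiquitin ligase CHIP, ran from -0.94 over a median of -0.69 to -0.62. Its mean was -0.72 ± 0.11 (SD, n = 6), a ratio of 0.608-fold with a limma adjusted p of 0.000106. Bag3, the autophagy co-chaperone that binds Hspb8, ran from -0.80 over -0.70 to -0.56 and averaged -0.69 ± 0.09 (SD, n = 6), a ratio of 0.621-fold with a limma adjusted p of 0.0001. Both were below 0 in all 6 replicates, and both stayed called in every alternative run, single dye orientations included. Bag1, Bag4 and Bag6 did not pass the test.

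Genes of skeletal muscle moved in the same direction as Hspb8, Hspb2 and Bag3, as did other marker lists. Of 22 listed muscle markers 18 were tested in eye, 16 lower and 1 higher, with a median of -0.86 and replicate medians between -1.09 and -0.51. Among them Actn3, a fast-fibre actinin, averaged -1.18 ± 0.27 and Ckm, the muscle creatine kinase, -1.13 ± 0.28 (SD, n = 6 each). Unc45b, the myosin chaperone of muscle and no member here, averaged -0.59 ± 0.29 (SD, n = 6; limma adjusted p = 0.00405). Of all genes tested in eye 11.0% were lower. Markers of cornea and surface epithelium were lower in 13 of 15 tested, with a median of -0.92. Blood markers were lower in 3 of 3 tested, with a median of -1.22, and immune markers in 12 of 15, with a median of -0.46. Of the immediate early genes 15 were tested, 12 lower and 1 higher. The part of any of these in the values of Hspb8, Hspb2, Bag2 and Bag3 was not tested. The subset of muscle small heat shock genes with Bag3 had 3 lower and 1 higher, Cryab, of 7 tested. Its other genes did not pass the test, among them Hspb3 at -0.15 ± 0.34 and Hspb7 at 0.11 ± 0.35 (SD, n = 6 each).

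The chaperonins had 1 call. Cct4, a subunit of the CCT ring that folds actin and tubulin, ran over 0.14, 0.28 and 0.49 in eye and averaged 0.29 ± 0.14 (SD, n = 6; limma adjusted p = 0.0138). Cct3, another subunit, averaged 0.16 ± 0.07 (SD, n = 6) and lay just outside the threshold. The other 7 CCT genes ranged from -0.07 to 0.19, and none passed the test. Hspd1, the mitochondrial HSP60, averaged 0.26 ± 0.37 and its lid partner Hspe1 averaged 0.07 ± 0.74 (SD, n = 6 each). Hspe1 was -0.84 and -0.75 in replicates 1 and 2, against 0.06 to 0.99 in the other replicates, and was not called.

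Probes of a gene were averaged, and in eye they could be compared for 27 members, with a median spread of 0.21 between probes. The spread was above 1 in Hsp90aa1 alone, where 1 probe averaged 1.12 ± 0.17 and the second 0.00 ± 0.27 (SD, n = 6 each). The first was called higher in the fit by probe and the second was not (adjusted p of 2.7e-05 and 0.992), so the value of 0.56 for the gene is a mean of unlike probes. The 3 probes of Hspa14 averaged 1.02, 0.54 and 0.21, all above 0. The 2 probes of Hspb8 averaged -1.04 and -0.78, those of Bag3 -0.63 and -0.74, and those of Dnajb2 0.45 and 0.47. Probes of Dnajc5 averaged 0.10, 0.33 and 0.34. In the fit by probe both probes of Hspb8 and of Bag3 were called, and 2 of 3 of Hspa14 and of Dnajc5. For Dnajb2, Cryab and Dnajc3 1 of 2 probes was called, and for Dnajc6 1 of 3. Bag4, which was not called as a gene, had 1 probe at 0.07 and another at -0.27, and the second was called lower by itself.

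**Figure D3:**
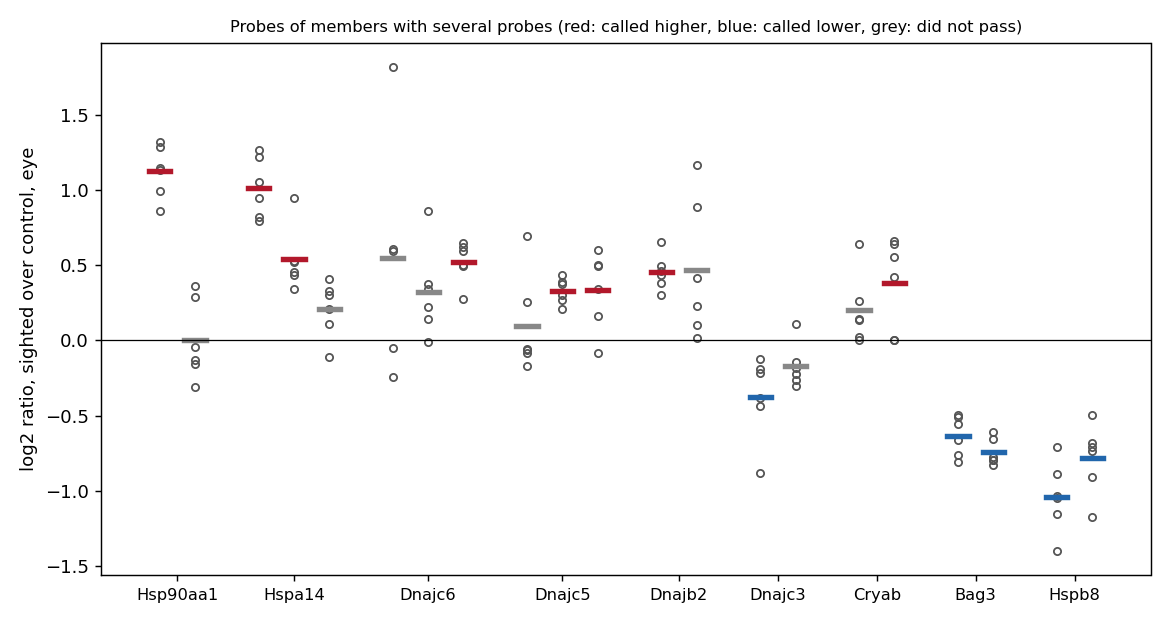
Log2 ratio of sighted over control RNA in eye for each probe of the 9 called members with several probes, with open circles for replicates and a bar for the mean, red or blue where the probe was called higher or lower. The 2 probes of Hsp90aa1 stand at 1.12 and 0.00, while both probes of Hspb8 are below 0.

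The dye mattered for these genes as it did for the array. With sighted RNA in Cy5, Hspa14 averaged 0.89, against 0.28 with sighted RNA in Cy3, and Cryaa averaged 0.87 against 0.15. Hspb8 averaged -0.66 with sighted RNA in Cy5 and -1.16 with it in Cy3. All 18 called members had the same sign in both orientations, but some lay near 0 in one. With sighted RNA in Cy3, Dnajb11 averaged 0.03 and Dnajb2 0.06, and with it in Cy5 Dnajc3 averaged -0.04. Only Bag2, Bag3 and Hspb8 were called in each orientation alone. On the Cy5 arrays alone 26 of 64 members were higher and 3 lower, against 37.2% and 3.12% of all genes. On the Cy3 arrays alone 0 of 64 were higher and 8 lower, against 3.39% and 20.8% of all genes. Averaging a pair of opposite dyes removes an additive dye effect, and the calls above rest on those averages.

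**Figure D4:**
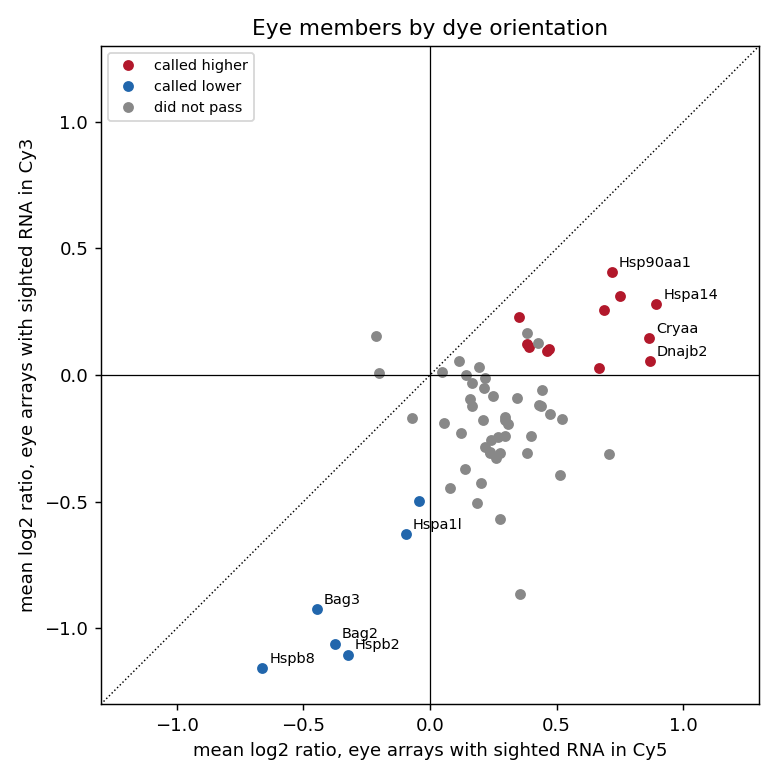
Mean log2 ratio of sighted over control RNA in eye with sighted RNA in Cy3 (vertical axis) against that with it in Cy5 (horizontal axis), for each member tested, with a dotted line where both are equal. The called members, such as Hspa14 at 0.89 in Cy5 and 0.28 in Cy3, keep their sign in both, though some, such as Dnajb11 in Cy3, lie near 0.

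Genes outside the rule that act in the same pathways were read from lists. Of 26 listed cytosolic co-chaperones 19 were tested in eye, with 4 higher and 1 lower. Stub1, the ubiquitin ligase CHIP, averaged 0.59 ± 0.13 (SD, n = 6), and Ahsa2, of the family that speeds the HSP90 ATPase, 0.37 ± 0.19 (SD, n = 6). Of the prefoldin and chaperonin list 9 of 12 were tested and 2 were higher, the tubulin cofactor Tbcc at 1.00 ± 0.13 and the prefoldin subunit Vbp1 at 0.30 ± 0.12 (SD, n = 6 each). The mitochondrial list had 9 of 12 tested and 2 higher, the import motor anchor Timm44 at 0.67 ± 0.14 (SD, n = 6) and the protease subunit Clpx at 0.30 ± 0.19 (SD, n = 5). Of 38 genes of the endoplasmic reticulum and the unfolded protein response 24 were tested. The transcription factor Atf4 at 0.51 ± 0.15 and Atf6b at 0.31 ± 0.26 were higher, and P4hb, protein disulphide isomerase, at -0.36 ± 0.26 was lower (SD, n = 6 each). In the list of other proteostasis genes 9 were tested and Hdac6 alone was called, at 0.22 ± 0.13 (SD, n = 6). Each of these 5 lists was called less often than all genes tested in eye, of which 26.8% were called. The medians of the lists lay between 0.05 and 0.13, against 0.03 for all genes, and no gene of them was called in brain or heart.

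In brain, 0 of the 63 members tested were called (limma), against 0.00621% of all 16112 genes, and 4 members had an unadjusted p under 0.05, against 4.08% of all genes. The member median was -0.05, against -0.00354 for all genes, and 43 of 63 members had a mean below 0, against 51.6% of all genes. Hspa5, the HSP70 of the endoplasmic reticulum, had the smallest p of the members. Its replicates ran from -0.41 over a median of -0.33 to -0.01, all below 0, with a mean of -0.29 ± 0.14 (SD, n = 6), and its limma adjusted p was 0.959. Cct6b averaged 0.16 ± 0.08, Hsph1 -0.15 ± 0.09, Dnajc14 -0.20 ± 0.20 and Hspb3 0.21 ± 0.26 (SD, n = 6 each), with the same adjusted p. Of the genes furthest from 0 in eye, Hspb8 averaged 0.04 ± 0.23, Bag3 -0.06 ± 0.19, Hspa14 -0.07 ± 0.15 and Hsp90aa1 -0.06 ± 0.10 in brain (SD, n = 6 each). Bag2 averaged 0.13 ± 0.33 (SD, n = 6), with a lowest value of -0.13, a median of 0.02 and a highest of 0.76. Hspb2 and Cryaa were not tested in brain and ran from -0.42 to 0.69 and from -0.55 to 0.21 over 4 replicates each.

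In heart, 0 of the 57 members tested were called (limma), against 0% of 12755 genes, and 7 members had an unadjusted p under 0.05, against 8.17% of all genes. Dnaja3, a J-domain protein of mitochondria, had 0.31, 0.70, 0.80 and 0.69 in its replicates and a mean of 0.62 ± 0.22 (SD, n = 4; limma adjusted p = 0.568). Dnajc19, a part of the mitochondrial import motor, had 0.31, 0.87, 0.94 and 0.51 and a mean of 0.66 ± 0.30 (SD, n = 4). Both were above 0 in each replicate, and neither passed the adjusted test. Dnajc16 had -0.50, -0.72 and -1.23 (mean -0.82 ± 0.38) and Cct6a -0.53, -0.74 and -0.51 (mean -0.59 ± 0.13) in 3 replicates each, as replicate 4 had no value. Dnajc5 had -0.54, -0.15, -0.44 and -0.76, with a mean of -0.47 ± 0.25 (SD, n = 4). Replicate 4, which includes the array with 61.6% missing values, held the highest value of Hspa5, which had -0.24, 0.78, 0.36 and 2.95, and of Dnajc3, which had -0.02, -0.03, 0.04 and 2.24. Neither was called, and the median of the endoplasmic reticulum subset in that replicate was 0.01. The 2 probes of Dnajb12 averaged -0.36 ± 0.23 (SD, n = 4) and 0.78 ± 1.24 (SD, n = 3).

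The difference between organs was tested directly, as the eye ratio minus the other organ's ratio. Eye minus brain was called for 10 of 61 members tested, 7 higher and 3 lower, against 17.6% of all genes tested, 10.9% higher and 6.72% lower. Hspb8 differed by -0.95 ± 0.13 (SE), with means of -0.91 in eye and 0.04 in brain (limma adjusted p = 0.00018). Bag2 differed by -0.84 and Bag3 by -0.63. Hspa14 differed by 0.65, Hsp90aa1 by 0.63, Hsp90b1 by 0.58, Dnajb2 by 0.53, Dnajc6 by 0.44, Cryab by 0.38 and Cct4 by 0.34. The differences of Cryab and Dnajc6 lost their call without several single replicates, among them eye replicate 6 for both, with an adjusted p of 0.0632 for Cryab and 0.0684 for Dnajc6. The remaining 8 differences kept theirs in every alternative run for differences, which did not include single dyes or the probe as unit.

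Eye minus heart was called for 12 of 57 members tested, 7 higher and 5 lower, against 15.3% of all genes, 8.78% higher and 6.49% lower. Hspb8, Bag2, Bag3, Hsp90aa1, Hspa14 and Dnajb2 were among these and had the same direction as in eye minus brain. Hspb8 differed by -0.87, Bag2 by -0.90 and Bag3 by -0.69, and Hsp90aa1 differed by 0.86, Hspa14 by 0.61 and Dnajb2 by 0.53. For the other 6 the mean in heart was further from 0 than that in eye. Dnajc16 differed by 1.01, Dnajc5 by 0.73, Cct6a by 0.56 and Dnajc11 by 0.56, while Dnaja3 differed by -0.88 and Dnajc19 by -0.62. The eye minus heart fit shares its spread between the organs and made excess false calls on simulated data. With each organ's own moderated spread 5 of the 57 members tested were called, against 4.83% of all genes tested. They were Hspb8, Bag3, Hsp90aa1, Dnajc5 and Dnaja3, all among the 12. The shared-spread differences of Dnaja3, Cct6a and Dnajb2 lost their calls without most single replicates. Dnaja3 did so without eye replicate 2, 4, 5 or 6 or heart replicate 2, 3 or 4, with an adjusted p up to 0.0901. Cct6a did so without eye replicate 1, 2, 3, 4 or 6 or heart replicate 1, 2 or 3 (up to 0.107), and Dnajb2 without eye replicate 1, 2, 3 or 6 or heart replicate 1, 2 or 4 (up to 0.0887). These 2 differences share the eye replicates and are not independent. Brain minus heart was called for 0 of 57 members tested (limma), against 0% of all genes tested, and 8 members had an unadjusted p under 0.05, against 17.2% of all genes. The pools of brain and heart came from the same control mice, which this test does not model.

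**Figure D5:**
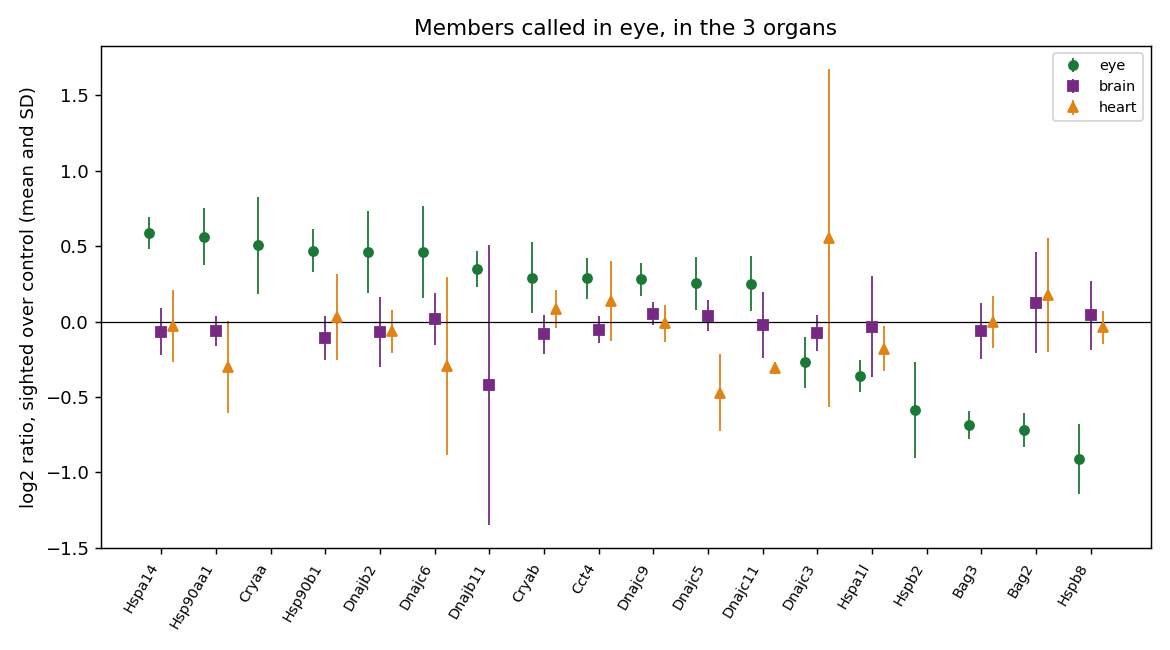
Mean log2 ratio of sighted over control RNA in eye, brain and heart for the members called in eye, with error bars of 1 SD over the replicates. Hspb8 stands at -0.91 in eye, against 0.04 in brain and -0.04 in heart.

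Members with too few replicates were left out of the tests. In eye these were Dnajc1 with values from -0.52 to -0.29, Dnajc17 from -0.06 to 0.77, Dnajc18 from 0.19 to 0.38 and the inducible HSP70 gene Hspa1a from -0.70 to 0.29. Dnajc17 and Hspa1a were also left out in brain, with Cryaa and Hspb2. In heart 10 members were left out, of which Cryaa and Dnajb3 had no value in any replicate.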

How the data were processed

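RNA of sighted C3H and control C3H.pde6b- mice was compared on 32 2-colour cDNA arrays. Per the labels' protocols, cDNA made from total RNA carried Cy3 or Cy5 by indirect labelling. The deposited unit is a log2 ratio, Cy5 over Cy3, for each probe of an array. How arrays were scanned, background-corrected and normalized is not given in the sources used here, and array medians lay between -0.061 and 0.535 in eye, so scaling and centring are unknown. The ratio's direction was inferred from the rod genes and is called likely. Brain array 3 is labelled Cy5 in each channel, and its sighted RNA was taken to carry Cy5. Its Prl ratio of -2.37 lay within those of the other brain arrays of that dye (-3.66 to -1.20). The source of brain array 5 is labelled only as sighted.

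Of 20794 probes, 12771 carried 1 gene symbol, 0 several and 8023 none. All 32 columns were mapped to samples. Ratios were turned to sighted over control by the labelled dye, and 4170 ceiling values above 15 were set to missing, which was decided after the data had been seen. Consecutive arrays of opposite dye were averaged by probe into 1 replicate where both had a value, and probes were then averaged by gene. A probe without a symbol was kept as a gene of its own in the tests, the adjustment and the shares of all genes. The pairs were read from the array numbers. After removal of each orientation's mean, the mean correlation within a pair was 0.0704 for eye, 0.00525 for brain and -0.0137 for heart. A gene could miss 1 replicate. The mean was tested against 0 with limma 3.58.1 in R 4.3.3, two-sided, with Benjamini-Hochberg adjustment over all genes at 0.05. Differences between organs used a limma fit of the 2 organs compared. The functions were tested on simulated data, where the eye minus heart fit made excess false calls with its shared spread.

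Named genes were the members called in an organ or a difference, the members of smallest p in each role until 2 were named, the 5 of smallest p in brain and in heart, members whose probes differed by more than 1 in log2, and of each other pathway or marker list up to 3 or 2 called in eye. Members named in eye outside this rule, such as Hspb1, Hspa5, Bag4 and Dnajb6, were chosen after their values were seen. The members and lists were chosen with earlier results of these data known. Alternatives were dye terms, centring, scaling, ceiling values, replicate minimum, robust moderation, single dyes, the probe as unit, the spread of each organ, the replicate block and single replicates left out. For differences between organs only centring, ceiling values, the spread of each organ, the replicate block and left-out replicates were run.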

Additional observations from a re-analysis of the deposited data

Results flagged for a closer look

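A replicate stood far from the other 5 of its gene in 4 of the 34 sets of replicates checked, where chance gives about 1 in 20. Bag2 was -0.94 in eye replicate 5, Dnajc3 was -0.59 in eye replicate 5, Dnaja3 was -1.35 in eye replicate 1 and Hspd1 was 1.00 in eye replicate 6. Bag2 kept its call without replicate 5, and Dnajc3 lost its call without it, with a log2 ratio of -0.20.

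The eye ratio differed from the brain ratio, by the limma test of the difference, in 10 members. The differences, as eye minus brain, were -0.95 for Hspb8, -0.84 for Bag2, -0.63 for Bag3, 0.34 for Cct4, 0.38 for Cryab, 0.44 for Dnajc6, 0.53 for Dnajb2, 0.58 for Hsp90b1, 0.63 for Hsp90aa1 and 0.65 for Hspa14.

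The eye ratio was called different from the heart ratio by the same test in 12 members, of which 5 stayed called with each organ's own spread. The shared spread of this test made excess false calls on simulated data. The differences, as eye minus heart, were -0.90 for Bag2, -0.88 for Dnaja3, -0.87 for Hspb8, -0.69 for Bag3 and -0.62 for Dnajc19. They were 0.53 for Dnajb2, 0.56 for Cct6a and for Dnajc11, 0.61 for Hspa14, 0.73 for Dnajc5, 0.86 for Hsp90aa1 and 1.01 for Dnajc16.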

How the results depend on the processing

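Of the counts of members called, 132 values under an alternative stayed within 1.5 times the main count and 12 moved further. On eye arrays with sighted RNA in Cy5 only, 26 members were higher and 3 lower, and with it in Cy3 only, 0 were higher. With the probe as the unit 10 of 98 probes were lower in eye, and without replicates 1 and 5, a setting added after seeing the data, 7 members were higher and 3 lower. In brain the Cy5 arrays alone gave 1 higher and 1 lower member, and the Cy3 arrays alone gave 4 lower. Leaving out single replicates gave 9 to 12 higher and 5 to 6 lower members in eye, 8 to 13 differences for eye minus brain, 9 to 12 for eye minus heart and 0 to 2 for brain minus heart, the 2 without heart replicate 1. Eye minus heart gave 5 calls with each organ's own spread and, with the replicate number as a replicate block, 4 of 45 members. The replicate block gave 11 of 59 members for eye minus brain and 0 of 45 for brain minus heart. Shares of all genes are not given for the counts by probe, by single dye in brain or by replicate block. Nor are they given with single replicates left out, so these counts cannot be set against the array. Same-numbered replicates of different organs share only a number.

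Single ratios turned sign as follows. With sighted RNA in Cy5 only, Dnajc14 was 0.13 in brain, and Dnaja3 was 0.36 in eye and called higher there (limma adjusted p = 0.037). Dnaja3 averaged -0.87 in eye on the arrays with sighted RNA in Cy3. With it in Cy3 only, Cct3 was -0.15 and Hspe1 -0.031 in eye and Dnajb12 was -0.57 in heart. With single replicates left out, Hspe1 ranged from -0.12 to 0.25 in eye, being -0.06 without replicate 3 and -0.12 without replicate 4, and Dnajb12 ranged from -0.23, without replicate 2, to 0.27 in heart. The cause was not tested. No call of the main fit turned sign. Among the eye ratios Cryab lost its call in 10 of 17 alternatives, Dnajc5 in 9, Dnajc11 in 8 and Dnajc3 in 7. Among the differences Dnajb2 lost it in 10 of 14 and Dnaja3 in 8 of 14 for eye minus heart, Cct6a in 9 of 13, and Dnajc6 in 8 of 16 for eye minus brain. The 4 heart and 6 eye replicates limit what can be called.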
